A study of Mus musculus with 8 samples.

Results

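Scavenger receptors for modified lipoprotein were followed in bone marrow derived macrophages (BMDMs) with and without MKL1, a cofactor of serum response factor also called MRTFA. The 8 genes were picked by symbol as members of this functional group: Msr1, Cd36, Marco, Colec12, Scarb1, Cd163, Olr1 and Clec7a, which are 8 of the 53735 genes counted. Of these, 7 passed the filter on low counts, which kept 14418 genes, and Olr1 did not. BMDMs came from 6-month-old male mice, and the labels count 4 WT (Mkl1+/+, Apoe-/-) and 4 KO (Mkl1-/-, Apoe-/-) libraries. Mice were on a C57BL/6J background, WT donors came from littermates or sibling mates, and KO donors lacked the Mkl1 allele in every tissue. Every donor, WT included, lacked Apoe and had received Ang II at 1.44 mg/kg/day for 7 days from an osmotic minipump, and no group without Ang II was analysed here. The marrow cells were then grown into macrophages for 7 days. Libraries 1, 2 (WT), 5 and 6 (KO) formed experiment 1, and libraries 3, 4 (WT), 7 and 8 (KO) formed experiment 2, which the submitters compared separately. The labels do not say whether each library was a separate mouse, so p-values measure only the spread between these libraries.

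Scavenger receptors are surface proteins of several unrelated structural classes that bind oxidised or acetylated low density lipoprotein, and many of them also bind microbes, dying cells or proteins in plaque. In macrophages this uptake is not shut down by a rise in cell cholesterol, so cells that take up much modified lipoprotein become lipid-laden foam cells. Class A members (Msr1, Marco, Colec12) are trimers with a collagen-like stalk. Class B members (Cd36, Scarb1) cross the membrane at both ends and move fatty acids or cholesteryl ester. Olr1 (LOX-1) and Clec7a (Dectin-1) are C-type lectin-like receptors, and Cd163 is built of cysteine-rich repeats.

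Each library held between 33977799 and 41584540 counts. All 9 macrophage markers were detected in every library, with a summed level of 13894 to 35228 CPM (counts scaled to a common library size). Summed neutrophil markers reached at most 1.52 CPM, dendritic cell markers 1.42 CPM and adipocyte markers 1.88 CPM, whereas fibroblast markers stood apart in experiment 1 and are given beside Colec12. Mkl1, the deleted gene, ranged from 25.6 to 29.6 CPM in WT, from 19.5 to 20.9 CPM in KO of experiment 1 and from 10.4 to 14.6 CPM in KO of experiment 2. Transcripts of the gene were thus still counted in KO, below the level of any WT library (exact permutation test over 70 arrangements, two-sided, p = 0.0286), and exchange within experiments gave p = 0.0556, the smallest that 36 arrangements allow. Apoe, which the labels give as absent in all donors, still had 2.82 to 8.36 CPM in WT and 4.49 to 22.7 CPM in KO.

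The difference between KO and WT depended on the experiment for 4 of the 7 tested receptors, as it did for 41.6% of all tested genes (edgeR interaction test). In experiment 1, 6 of the 7 tested receptors passed the threshold (edgeR quasi-likelihood test, Benjamini-Hochberg adjusted p under 0.05): Msr1, Cd36 and Marco fell in KO, and Colec12, Scarb1 and Clec7a rose. That experiment called 55.1% of all tested genes, 28.1% lower and 27% higher in KO, so a call by itself was common there. In experiment 2, 2 of the 7 passed: Colec12 rose and Clec7a fell, against a background of 15.8% of all tested genes (8.29% lower, 7.52% higher). Colec12 was therefore past the threshold in one direction in both experiments, as were 4.38% of all tested genes, and Clec7a was past it in opposite directions, as were 6.34%. The median log2 fold change of the 7 was 0.90 in experiment 1 and 0.55 in experiment 2, and that of all tested genes was 0.01 in both. In bulk RNA, fewer cells carrying a receptor and less of its RNA per cell cannot be told apart.

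**Figure D1:**
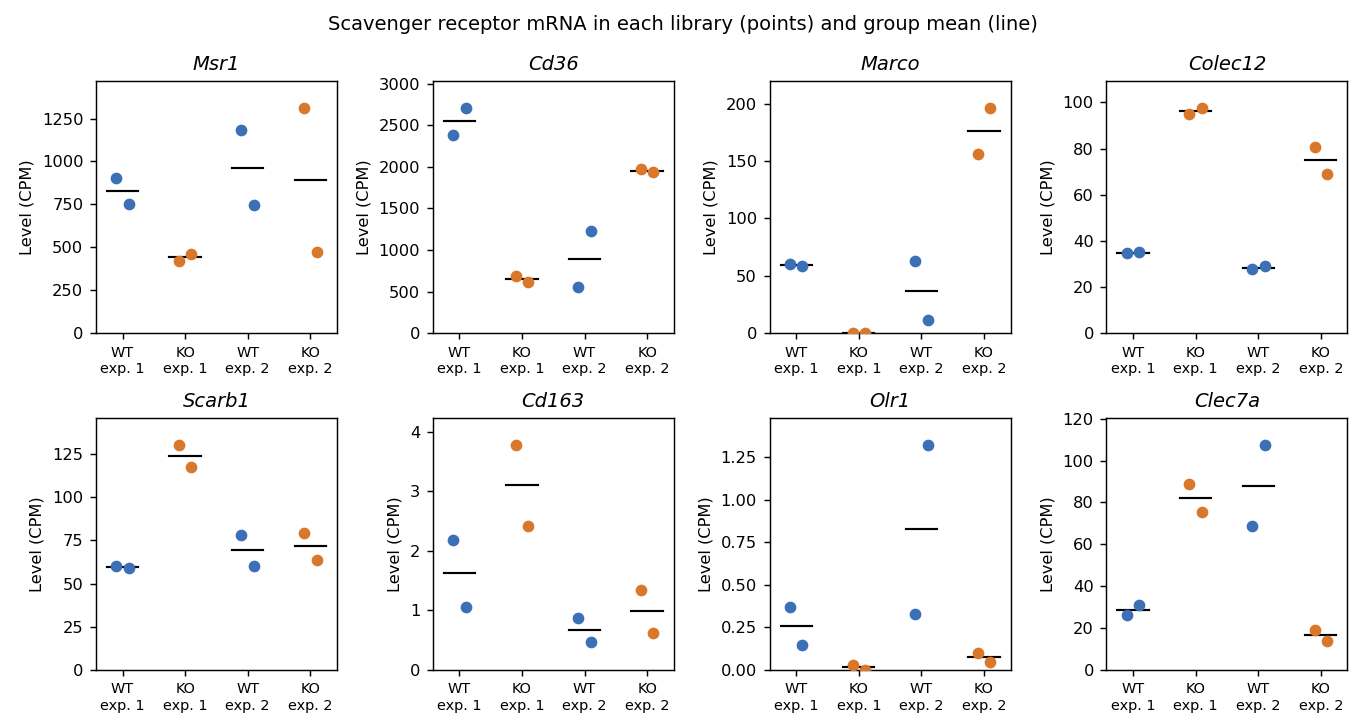
Level of each of the 8 receptors in CPM on linear axes that start at 0, with one point per library (blue WT, orange KO) and a line at the mean of the 2 libraries of a group. Colec12 was higher in both KO groups, whereas Clec7a was higher in KO of experiment 1 (75.2 and 88.9 CPM) and lower in KO of experiment 2 (13.8 and 19.0 CPM).

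The receptors differed in level by orders of magnitude. Per kb of exon, the group means of Cd36 were between 181 and 710 CPM per kb and those of Msr1 between 69.5 and 152 CPM per kb. Scarb1 (7.00 to 14.6 CPM per kb), Colec12 (3.24 to 11.0 CPM per kb) and Clec7a (6.21 to 33.4 CPM per kb) were lower than Msr1 in all 4 groups. These ranges overlap, so no order among Scarb1, Colec12 and Clec7a is read from them. Marco moved across the scale, from 0.00649 CPM per kb in KO of experiment 1 to 91.5 CPM per kb in KO of experiment 2. Cd163 (0.122 to 0.569 CPM per kb) and Olr1 (at most 0.231 CPM per kb) were near the limit of counting. By mean CPM, Cd36 and Msr1 stood at percentiles 99.7 and 99.2 of the tested genes and Cd163 at percentile 20.5.

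**Figure D2:**
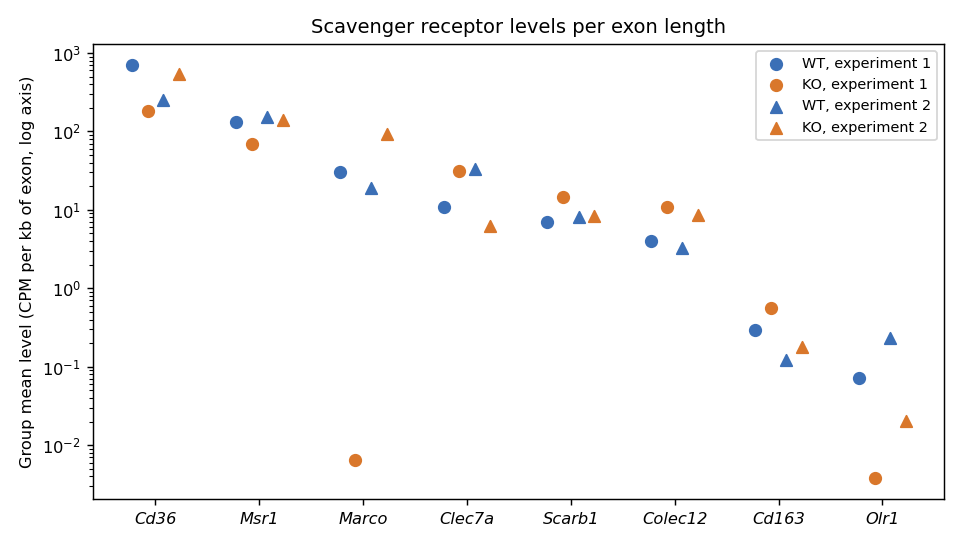
Mean level of each receptor in the 4 groups, in CPM per kb of exon on a log axis, where circles are experiment 1, triangles experiment 2, blue WT and orange KO. Cd36 and Msr1 lie at the top in all 4 groups, and the point for Marco in KO of experiment 1 (0.00649 CPM per kb) lies far below its other groups (19.3 to 91.5 CPM per kb).

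Among the class A receptors, Colec12 gave the steadiest difference. Colec12, also called CL-P1, is a collectin that binds oxidised lipoprotein and sugars, and it is best known from endothelial and other stromal cells. It had 34.6 and 35.1 CPM in WT and 94.9 and 97.6 CPM in KO in experiment 1. The values of experiment 2 were 27.6 and 28.9 CPM in WT and 80.8 and 69.0 CPM in KO. All 4 KO libraries lay above all 4 WT libraries, an arrangement in either direction that 12.7% of tested genes showed. Its log2 fold change was 1.45 ± 0.06 (SE, n = 2 and 2) in experiment 1 (edgeR adjusted p = 1.67e-06), which is 2.74-fold. In experiment 2 it was 1.40 ± 0.12 (edgeR adjusted p = 0.00655), which is 2.65-fold. The difference between the experiments was -0.06 with a 95% interval of -0.36 to 0.24 (edgeR interaction test, adjusted p = 0.733). With the experiment as an additive term over all 8 libraries the log2 fold change was 1.43 ± 0.07 (SE, n = 4 and 4, edgeR adjusted p = 0.000498), and Colec12 was the single receptor of the 7 past the threshold there, where 7.12% of tested genes were. Short genes and pseudogenes are annotated within Colec12 on both strands, and whether strand was used in counting is not stated.

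Fibroblast markers rose with Colec12 in experiment 1 but not in experiment 2. Their summed level over 9 markers was 4.72 and 11.5 CPM in WT and 178 and 234.5 CPM in KO of experiment 1, and 9.79 and 11.9 CPM in WT and 12.1 and 2.18 CPM in KO of experiment 2. All 7 tested fibroblast markers rose in KO of experiment 1, with a median log2 fold change of 4.69, and none passed the threshold in experiment 2, where the median was -0.28 (edgeR). At an unadjusted p under 0.05, 1 passed in experiment 2, as did 1 by DESeq2 and 0 by limma-voom. Colec12 rose 2.65-fold in experiment 2, where the fibroblast markers of KO libraries 7 and 8 did not exceed 12.1 CPM in sum. The part of fibroblast or other stromal RNA in the Colec12 difference was not tested in either experiment. Endothelial markers, mainly Kdr and Vwf, summed to 69.8 and 89.3 CPM in WT and 164 and 190 CPM in KO of experiment 1. In experiment 2 they summed to 223 and 118 CPM in WT and 106 and 67.1 CPM in KO, the other way round.

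**Figure D3:**
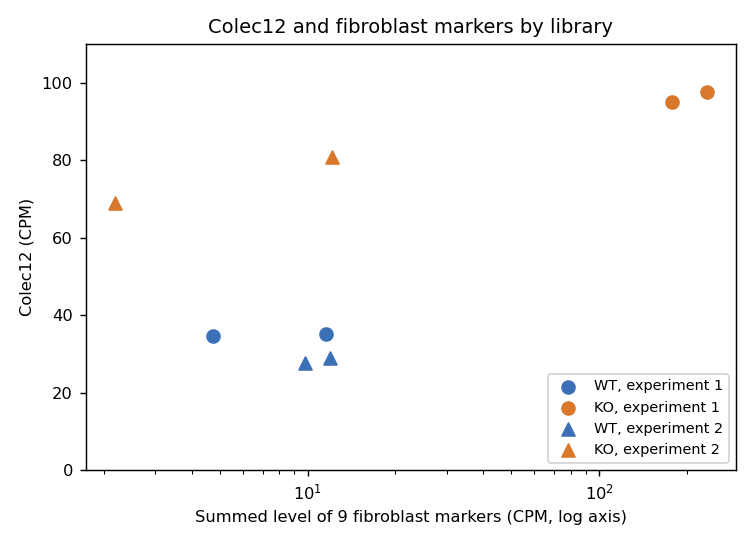
Colec12 level (CPM, linear axis from 0) against the summed level of 9 fibroblast markers (CPM, log axis), one point per library, with circles for experiment 1, triangles for experiment 2, blue for WT and orange for KO. The 2 KO libraries of experiment 2 lie at 69.0 and 80.8 CPM of Colec12 with marker sums of 2.18 and 12.1 CPM, against 4.72 to 11.9 CPM in the WT libraries.

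Marco, a class A receptor for bacteria, particles and modified lipoprotein, was all but absent from KO in one experiment and highest in KO in the other. In experiment 1 it had 2463 and 1982 counts in WT (60.6 and 58.2 CPM) and 0 and 1 count in KO. The ratio of the summed levels was 4577, with an exact 95% interval of 821 to 180812 that covers counting error only, as do all intervals on counts here (edgeR adjusted p = 7.82e-08). Experiment 2 gave 63.0 and 11.2 CPM in WT and 156 and 196 CPM in KO. The 2 WT libraries themselves differed 5.65-fold. The log2 fold change was 2.25 ± 0.80 (SE, n = 2 and 2) and missed the threshold (edgeR adjusted p = 0.124). It passed in a joint edgeR fit of the 4 groups (adjusted p = 0.0308). Without WT library 3 the log2 fold change was 3.98 (edgeR adjusted p = 0.00298) and without WT library 4 it was 1.48 (edgeR adjusted p = 0.0141). These passes set aside the spread between the 2 WT libraries: within an experiment, any fit without a library leaves 1 library in that group, which is assumed to vary like the 2 of the other group. The effects differed between experiments (edgeR interaction test, adjusted p = 0.000813).

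Msr1, the founding class A receptor for acetylated and oxidised lipoprotein, had 902 and 749 CPM in WT and 419 and 462 CPM in KO of experiment 1. The log2 fold change there was -0.92 ± 0.10 (SE, n = 2 and 2, edgeR adjusted p = 0.000293). This call was lost in the joint fit of the 4 groups (edgeR adjusted p = 0.129). In experiment 2 it had 1182 and 746 CPM in WT and 1311 and 470 CPM in KO, so the 2 KO libraries lay on either side of the WT libraries. The log2 fold change there was -0.11 with a 95% interval of -1.48 to 1.26 (edgeR adjusted p = 0.901), which leaves room for a fall of the size seen in experiment 1. A difference between the experiments was not detectable (0.79, edgeR interaction test, adjusted p = 0.324). Without KO library 8 that difference was 1.35. With no filter on low counts it was 0.82 and passed (edgeR interaction test, adjusted p = 1.53e-05). At near-equal effects, this setting also lowered the adjusted p of other receptors, for Cd36 from 0.00195 to 1.76e-68, though not of Colec12 and Cd163. The pass is therefore not read as a difference of Msr1.

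Both class B receptors changed in experiment 1, in opposite directions. Cd36, which takes up oxidised lipoprotein and long-chain fatty acids, had 2389 and 2710 CPM in WT and 684 and 615 CPM in KO. It fell by 1.99 on the log2 scale ± 0.09 (SE, n = 2 and 2, edgeR adjusted p = 2.51e-06), which is 3.96-fold. Cd36 in experiment 2 had 556 and 1228 CPM in WT and 1971 and 1938 CPM in KO. The WT level itself was lower than in experiment 1. The log2 fold change was 1.13 ± 0.39 (SE, n = 2 and 2) and missed the threshold (edgeR adjusted p = 0.115). It passed by DESeq2 (adjusted p = 0.00688), in the joint fit of the 4 groups (edgeR adjusted p = 0.0290) and, with the spread taken from the 2 KO libraries alone, without WT library 4 (1.81, edgeR adjusted p = 0.0125). Without WT library 3 the log2 fold change was 0.67 (edgeR adjusted p = 0.156). The effects of the experiments differed by 3.10 ± 0.45 on the log2 scale (edgeR interaction test, adjusted p = 0.00195).

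Scarb1 (SR-BI), the receptor for high density lipoprotein that also binds modified lipoprotein, had 60.2 and 58.8 CPM in WT and 130.5 and 118 CPM in KO of experiment 1. It rose 2.07-fold (log2 fold change 1.05 ± 0.07, SE, n = 2 and 2, edgeR adjusted p = 1.02e-05). In experiment 2 it had 78.4 and 60.3 CPM in WT and 79.2 and 63.8 CPM in KO, and the groups overlapped. The log2 fold change there was 0.04 with a 95% interval of -0.41 to 0.50, which does not reach the rise of experiment 1. The difference between the experiments was -1.01 ± 0.21 (edgeR interaction test, adjusted p = 0.00773). Another annotated gene, Gm42633, lies within Scarb1 on the same strand.

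Clec7a (Dectin-1), the lectin receptor for fungal beta-glucan, passed the threshold in both experiments with opposite signs. It had 26.4 and 31.1 CPM in WT and 88.9 and 75.2 CPM in KO of experiment 1, and rose 2.83-fold (log2 fold change 1.50 ± 0.11, SE, n = 2 and 2, edgeR adjusted p = 7.90e-05). Experiment 2 gave 68.5 and 108 CPM in WT and 19.0 and 13.8 CPM in KO. It fell there by 2.43 on the log2 scale ± 0.28 (SE, n = 2 and 2, edgeR adjusted p = 0.0135), which is 5.38-fold. That call was lost without KO library 8 (-2.21, adjusted p = 0.0787). The effects differed by -3.94 ± 0.34 (edgeR interaction test, adjusted p = 0.000361). The WT level itself was higher in experiment 2 than in experiment 1. The annotation lists Clec7a as a polymorphic pseudogene, a gene that is intact in some strains.

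**Figure D4:**
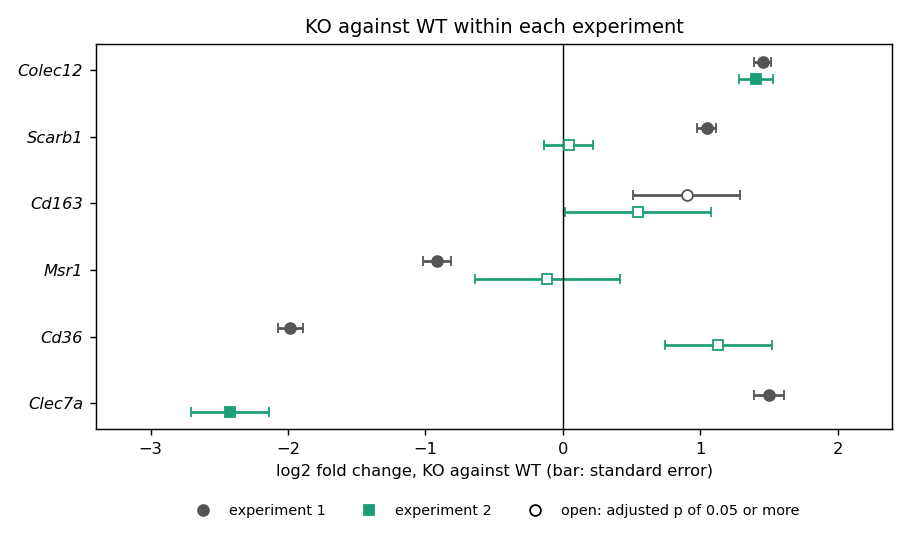
Log2 fold change of KO against WT for 6 receptors (points) with the standard error (bars), grey circles for experiment 1 and green squares for experiment 2, filled where the adjusted p was under 0.05. Colec12 lies at 1.45 and 1.40, whereas Clec7a lies at 1.50 and -2.43. Marco, which had 1 count in KO of experiment 1, and Olr1, which was not tested, are left out.

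Olr1 (LOX-1), the lectin-like receptor for oxidised lipoprotein first known from endothelium, was barely expressed. It had 15 and 5 counts in WT and 1 and 0 counts in KO of experiment 1, and 12 and 46 counts in WT and 4 and 2 counts in KO of experiment 2. In CPM the genotypes did not overlap, with 0 to 0.0976 CPM in KO and 0.147 to 1.32 CPM in WT. Of the tested genes, which do not include Olr1, 12.7% showed such a separation in either direction. The ratio of WT to KO was 20.6 in experiment 1 (exact 95% interval 3.29 to 854) and 11.2 in experiment 2 (exact 95% interval 4.85 to 31.8), for counting error only. Olr1 is given here by its counts alone, because a filter that keeps it does so through the WT libraries, where it is higher. Alternative fits that kept Olr1 enter only the account of how results depend on the processing, and are not read as a difference of Olr1.

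Cd163, the receptor for haemoglobin bound to haptoglobin, was low as well. It had 2.19 and 1.06 CPM in WT and 3.79 and 2.43 CPM in KO of experiment 1, and 0.877 and 0.460 CPM in WT and 1.34 and 0.624 CPM in KO of experiment 2. The log2 fold change was 0.90 ± 0.39 (SE, n = 2 and 2, edgeR adjusted p = 0.0967) in experiment 1 and 0.55 ± 0.53 (edgeR adjusted p = 0.512) in experiment 2. Neither passed, and the groups of experiment 2 overlapped. In experiment 1 Cd163 passed with no filter at a near-equal log2 fold change of 0.86 (edgeR adjusted p = 0.00106). That setting lowered the adjusted p of every other tested receptor too, for Cd36 to 3.91e-169, so the pass is not read as a difference of Cd163. The log2 fold change was 1.54 without WT library 1, 0.49 without WT library 2 and 0.55 without KO library 5.

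The difference between the experiments was itself past the threshold for 4 of the 7 tested receptors, Cd36 and Marco upward and Scarb1 and Clec7a downward from experiment 1 to experiment 2 (edgeR interaction test). Replicates lay closer together in experiment 1, where counts of 2 libraries of a group gave a chi-square per gene of 12.1 to 16, than in experiment 2, where it was 67.9 to 80.9. Experiment is the only batch the labels give, and each experiment held both genotypes.

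Promoter sequence is shown for the receptors with the widest differences, Marco, Cd36 and Clec7a, and for Olr1, because it lies only 12.5 kb from Clec7a on the same strand. The genes lie, on GRCm38, at chr1:120474538-120505024 (Marco), chr5:17781690-17888801 (Cd36), chr6:129461591-129472779 (Clec7a) and chr6:129485244-129507165 (Olr1), all on the minus strand. In the same annotation Msr1 lies at chr8:39581685-39642673 (minus strand), Scarb1 at chr5:125277087-125341094 (minus strand) and Cd163 at chr6:124304656-124330527 (plus strand). RefSeq promoter windows of 300 bases, 250 before and 50 after a transcription start on GRCm38.p6, were found for 5 of the 7 receptors looked up. They are printed 5′ to 3′ in the direction of the gene, and capitals mark matches to the motifs named after them. The windows lie at chr1:120504975-120505274 for Marco, chr5:17835847-17836146 for Cd36, chr6:129472730-129473029 for Clec7a and chr6:129507116-129507415 for Olr1.
Marco: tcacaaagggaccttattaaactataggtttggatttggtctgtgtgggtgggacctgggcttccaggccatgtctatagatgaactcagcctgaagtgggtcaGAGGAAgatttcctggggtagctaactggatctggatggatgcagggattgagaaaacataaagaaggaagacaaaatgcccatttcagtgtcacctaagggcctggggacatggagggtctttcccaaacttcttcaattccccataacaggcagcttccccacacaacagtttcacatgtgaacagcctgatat
Cd36: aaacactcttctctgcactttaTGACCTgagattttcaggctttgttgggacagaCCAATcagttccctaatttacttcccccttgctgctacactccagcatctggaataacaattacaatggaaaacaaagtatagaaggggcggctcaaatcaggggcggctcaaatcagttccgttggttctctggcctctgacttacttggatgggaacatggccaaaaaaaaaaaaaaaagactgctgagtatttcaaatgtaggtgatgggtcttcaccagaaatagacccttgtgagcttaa
Clec7a: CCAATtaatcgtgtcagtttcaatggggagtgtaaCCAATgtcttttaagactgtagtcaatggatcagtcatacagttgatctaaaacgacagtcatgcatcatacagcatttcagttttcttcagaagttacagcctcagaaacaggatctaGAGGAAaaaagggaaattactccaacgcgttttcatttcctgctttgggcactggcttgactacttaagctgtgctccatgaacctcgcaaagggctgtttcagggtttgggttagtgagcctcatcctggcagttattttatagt
Olr1: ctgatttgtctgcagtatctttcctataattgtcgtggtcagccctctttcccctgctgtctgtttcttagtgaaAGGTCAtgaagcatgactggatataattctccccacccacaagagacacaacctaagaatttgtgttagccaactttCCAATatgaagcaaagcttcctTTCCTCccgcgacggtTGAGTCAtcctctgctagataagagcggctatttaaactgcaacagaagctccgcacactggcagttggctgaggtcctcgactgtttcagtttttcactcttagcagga

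Each window was searched on both strands. The CArG box, which serum response factor binds, had no match in any of the 5 receptor windows, and 1.63% of all 32851 windows of this length hold one. The antioxidant response element (TGACNNNGC, in 12.4% of all windows) had no match either. The AP-1 site TGANTCA, in 7.81% of all windows, was found in Olr1 alone of the 5, at -60 from the start, where this pattern matches both strands. The nuclear receptor core motif AGGTCA (16.3% of windows) was found in Olr1 at -175 and, on the minus strand, in Cd36 at -228. The ETS motif GAGGAA (28.3% of windows), the type PU.1 binds, was found in Marco at -146, in Clec7a at -96 and, on the minus strand, in Olr1 at -76. The CCAAT box (37.4% of windows) was found in Cd36, Clec7a and Olr1 and, on the minus strand, in Cd163. No matches of different motifs overlapped one another. These are matches of letters only, and binding was not measured here.

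Genes that act with these receptors were taken from lists set by function. For every list the counts are of genes past the threshold, lower or higher in KO, and stand beside 55.1% of all tested genes in experiment 1 (28.1% lower, 27% higher) and 15.8% in experiment 2 (8.29% lower, 7.52% higher). Of 12 tested other scavenger receptors, 2 passed as lower and 6 as higher in experiment 1, with a median log2 fold change of 0.34, and 1 passed as lower and 2 as higher in experiment 2, with a median of -0.12. Mrc1, the mannose receptor, rose in experiment 1 (1.91 ± 0.10, edgeR adjusted p = 8.01e-06) and Scarb2, a lysosomal class B protein, rose less (0.65 ± 0.06, edgeR adjusted p = 6.26e-05). Cd5l, a secreted protein with the cysteine-rich repeats of Cd163, rose in experiment 2 (2.56 ± 0.25, edgeR adjusted p = 0.00798), as did Scarf2 (2.38 ± 0.32, edgeR adjusted p = 0.0152). Cxcl16, a chemokine that as a surface protein binds oxidised lipoprotein, was chosen after its values were seen because it was the one member of this list past the threshold in both experiments (-0.48 and -1.58 on the log2 scale). The calls of Cd5l and Scarf2 were lost without KO library 8 (adjusted p = 0.0588 and 0.0731), and that of Cxcl16 was lost without any of WT libraries 1, 3 and 4 and KO libraries 6 and 8 (adjusted p up to 0.122 in experiment 1 and 0.118 in experiment 2).

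Among 4 tested lectin genes of the Dectin-1 cluster, Clec1a rose in experiment 1 (1.48 ± 0.44, edgeR adjusted p = 0.0208), at 1.22 CPM or less, and no gene of the cluster list passed in experiment 2, where the median was -0.91 and 3 had an unadjusted p under 0.05 (1 passed by DESeq2 and 1 by limma-voom). Without WT library 1 or KO library 5 the call of Clec1a was lost (adjusted p up to 0.134), as it was by DESeq2. Of 9 Dectin-1 signalling genes, 2 passed as lower and 3 as higher in experiment 1, a share near that of all tested genes, and 3 passed as lower and 1 as higher in experiment 2. Syk, the kinase directly downstream of Dectin-1, had 910 and 818 CPM in WT and 378 and 386 CPM in KO of experiment 1 and fell by 1.19 on the log2 scale ± 0.07 (edgeR adjusted p = 8.72e-06). It was lower in experiment 2 as well (-0.72 ± 0.14, edgeR adjusted p = 0.0316), a call lost on leaving out any of the 4 libraries. Clec7a itself rose in the first of these experiments and fell in the second. Malt1, which carries the signal on to NF-kB, fell in experiment 2 (-2.70 ± 0.15, edgeR adjusted p = 0.00327).

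Of 7 CD36 partners, 4 passed as lower and 2 as higher in experiment 1, with a median log2 fold change of -0.36, and 3 passed as lower and 1 as higher in experiment 2, with a median of -0.35. Tlr2, a toll-like receptor that works with CD36, had 151 and 130 CPM in WT and 83.8 and 80.8 CPM in KO of experiment 1. Tlr2 in experiment 2 had 605 and 549 CPM in WT and 59.7 and 81.5 CPM in KO. It fell in both experiments (-0.78 ± 0.08 and -3.03 ± 0.20 on the log2 scale, edgeR adjusted p = 0.000128 and 0.00448). Lyn, a Src family kinase bound to CD36, fell in experiment 1 (-1.08 ± 0.07, edgeR adjusted p = 8.69e-06). The tetraspanin Cd9 and the Src family kinase Fyn passed in both experiments with opposite signs, Cd9 at 1.22 and -1.52 and Fyn at -0.40 and 0.96. Without KO library 8 the calls of Cd9 and Fyn in experiment 2 were lost (edgeR adjusted p = 0.0543 for each).

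The lipid taken up is hydrolysed, stored as ester or exported. Of 14 tested genes for this fate, 3 passed as lower and 7 as higher in experiment 1, and 2 as lower and 4 as higher in experiment 2, with medians of 0.31 and 0.05. Lpl, the secreted lipoprotein lipase, fell in experiment 1 (-1.21 ± 0.09, edgeR adjusted p = 2.19e-05). Nceh1, a cholesteryl ester hydrolase, rose in experiment 2 (1.04 ± 0.15, edgeR adjusted p = 0.0163), a call lost without WT library 3, KO library 7 or KO library 8. Ch25h, which makes 25-hydroxycholesterol, rose by 1.33 in experiment 1 and fell by 4.21 on the log2 scale in experiment 2, where the call was lost without KO library 8 (edgeR adjusted p = 0.0820). Plin2, the lipid droplet coat protein, also changed sign (-0.64 and 1.02) and Acsl1, an acyl-CoA synthetase, did not (-0.67 and -2.05). Both were chosen after their values were seen. Without WT library 3 neither call in experiment 2 held, nor did that of Plin2 without KO library 7 or 8 or that of Acsl1 without WT library 4 (edgeR adjusted p up to 0.0872 for Plin2 and 0.127 for Acsl1).

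For haemoglobin and haem handling after CD163, 4 of 7 tested genes passed as lower and 2 as higher in experiment 1, and 1 gene passed in experiment 2, where it was higher (3 of the 7 had an unadjusted p under 0.05 and 3 passed by DESeq2). Slc40a1, the iron exporter ferroportin, had 8.43 and 8.16 CPM in WT and 66.9 and 62.8 CPM in KO of experiment 1, a log2 fold change of 2.95 ± 0.08 (edgeR adjusted p = 3.13e-07). Blvrb, a biliverdin reductase, fell there (-0.73 ± 0.06, edgeR adjusted p = 3.09e-05). Fth1, the ferritin heavy chain, fell in experiment 1 and rose in experiment 2 (-0.92 and 0.92), and the rise did not hold on leaving out any of the 4 libraries (edgeR adjusted p up to 0.151).

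Of 12 transcription factors known to act on scavenger receptor genes, 4 passed as lower and 4 as higher in experiment 1, and 3 as lower and 4 as higher in experiment 2, with medians of 0.03 and 0.44. Nr1h3 (LXR alpha), a sterol-sensing nuclear receptor, had 49.0 and 45.6 CPM in WT and 12.1 and 9.85 CPM in KO of experiment 1. In experiment 2 it had 118 and 122 CPM in WT and 28.3 and 23.9 CPM in KO. It fell in both (-2.12 ± 0.10 and -2.20 ± 0.13 on the log2 scale, edgeR adjusted p = 4.69e-06 and 0.00372), and both calls held without each library in turn. Cebpb fell in experiment 1 (-1.56 ± 0.07, edgeR adjusted p = 1.75e-06). Nfe2l2 (NRF2), the oxidant-sensing factor that acts on Marco and Cd36, fell in experiment 2 (-1.23 ± 0.14, edgeR adjusted p = 0.0108), a call lost without KO library 8 (adjusted p = 0.0670). Spi1 (PU.1), chosen after its values were seen, was lower in both experiments (-0.60 and -0.55), but its call in experiment 2 was lost on leaving out any of the 4 libraries (edgeR adjusted p up to 0.151).

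Across these lists, 25 calls of named genes were made in experiment 1 and 20 of them held without each library in turn. Of 21 such calls in experiment 2, those of Malt1, Tlr2 and Nr1h3 held, 3 in all, and 16 were lost without KO library 8, 11 without WT library 3, 10 without KO library 7 and 8 without WT library 4 (edgeR). Of the 9 macrophage markers, 4 passed as lower and 4 as higher in KO of experiment 1, and 2 as lower and 3 as higher in experiment 2. Adgre1 (F4/80) fell by 2.11 on the log2 scale in experiment 1 and rose by 0.91 in experiment 2, and Csf1r, the receptor for the growth factor that sustains macrophages, rose by 0.82 and then fell by 1.28. Their part in the receptor differences was not tested.

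**Figure D5:**
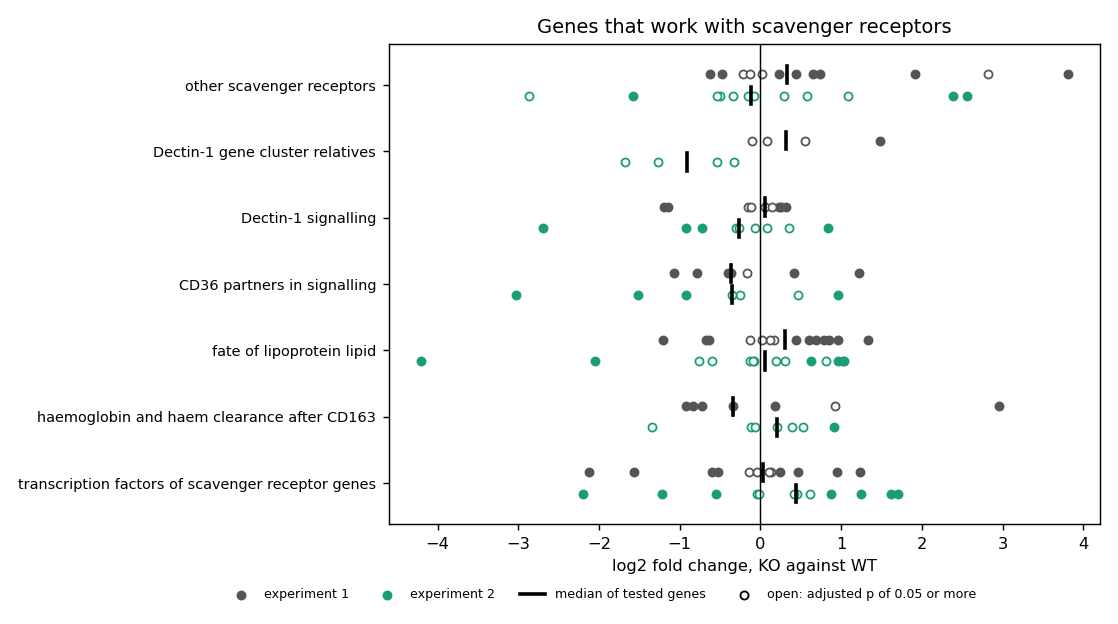
Log2 fold change of KO against WT for every tested gene of 7 lists (points, filled where the adjusted p was under 0.05), grey for experiment 1 and green for experiment 2, with a black bar at the median of each list. List medians lie between -0.91 and 0.44, and genes of each list lie on either side of 0, apart from the Dectin-1 cluster genes in experiment 2, which lie below it without passing the threshold.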

How the data were processed

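RNA of 8 BMDM samples was sequenced from stranded mRNA libraries. Per the labels, the processing notes of the submitters name STAR 2.7.0f, Subread 1.6.4 with featureCounts, GRCm38 and DESeq2 1.22.1. The annotation and the strand setting of the counting are not given in the sources used here. The authors deposited raw counts per gene for each experiment and a signal of normalized counts, in which each column equals the counts divided by 1 factor between 0.891 and 1.09. The deposited counts entered the tests, and the normalized signal was checked and left out, because its factors were set within each experiment. Counts of replicate libraries differed beyond sampling noise, so no library was counted as a copy.

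The 8 receptors and the gene lists were chosen with earlier results of these data known. Both tables were joined by gene symbol, with groups from the labels. Genes were kept by filterByExpr over genotypes, which left 14418 of 53735 genes with at least 99.88% of the counts of each library. CPM used TMM library sizes, and log2 CPM a prior count of 2. KO was compared with WT within each experiment, with an interaction term and with an additive experiment term, by the quasi-likelihood F test of edgeR 4.0.16 in R 4.3.3 with Benjamini-Hochberg adjustment over all genes and a threshold of 0.05. Standard errors came from each log2 fold change and its F statistic, as the former over the root of the latter. The text names the receptors, Mkl1, Apoe, the 2 genes of each list with the smallest p in each experiment where they serve the comparison, the 3 genes most like each receptor, and genes said to be chosen after their values were seen. A few genes that these rules pick are not reported here.

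Alternatives were DESeq2 1.42.0, upper-quartile scaling, limma-voom (limma 3.58.1), other filters (none, over the 4 groups, at least 10 counts in every library), a joint fit of 4 groups, each library left out, no experiment term, the interaction kept, an adjusted p under 0.01 and, added after the data were seen, KO libraries exchanged between experiments in the experiment term. The edgeR fit was tested on simulated data. Genes were placed with GENCODE M21 on GRCm38 by symbol.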

Additional observations from a re-analysis of the deposited data

Results flagged for a closer look

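Effects of KO that differed between the experiments by the edgeR interaction test, with Benjamini-Hochberg adjusted p under 0.05, are given as the log2 fold change in experiment 2 minus that in experiment 1. Among the receptors the difference was 3.10 for Cd36, 14.08 for Marco (a fitted value that depends on 1 count in KO of experiment 1 and is no bound), -1.01 for Scarb1 and -3.94 for Clec7a. Groups of 2 libraries are too small to look for outlying samples within a group.

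Among other scavenger receptors it was -2.01 for Mrc1, -0.82 for Scarb2, 2.68 for Cd5l, 2.59 for Scarf2 and -1.11 for Cxcl16. In the Dectin-1 cluster it was -2.77 for Clec1a and -0.45 for Clec12a. In Dectin-1 signalling it was 1.49 for Vav1, 0.45 for Syk, -2.59 for Malt1, 0.59 for Inpp5d and -1.19 for Prkcd. Among CD36 partners it was 0.71 for Lyn, -2.75 for Cd9, -2.26 for Tlr2 and 1.35 for Fyn.

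In the fate of lipoprotein lipid it was 1.07 for Lpl, 0.91 for Nceh1, -5.54 for Ch25h, 1.65 for Plin2 and -1.39 for Acsl1. In haem clearance it was -4.31 for Slc40a1, 1.24 for Blvrb and 1.82 for Fth1. Among transcription factors it was 1.51 for Cebpb, -1.19 for Nfe2l2, 1.37 for Cebpa and 1.39 for Jun. Cxcl16, Prkcd, Plin2, Acsl1, Cebpa and Jun were chosen after their values were seen. For comparison, 41.6% of all tested genes passed this test.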

How the results depend on the processing

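Colec12 passed the threshold in all 11 alternatives in experiment 1, all 11 in experiment 2 and all 17 with the additive term, with adjusted p up to 0.000121, 0.0382 and 0.0232. No paired analysis was possible because the labels number the libraries 1 to 8 and no number is shared between groups. In experiment 2 the count of receptors past the threshold was 2, and it was 4 in the joint fit of 4 groups, 1 at an adjusted p under 0.01 and 1 to 4 when a library was left out, where the lone library of its group is assumed to vary like the other group. With the additive term it was 1, and it was 2 with no filter, 2 with the filter over 4 groups and 3 with the interaction kept. Under both filters the added receptor was Olr1, which the filter over 4 groups keeps through WT libraries and which is not read as a difference. Marco could not be tested where at least 10 counts were asked of every library. Its additive log2 fold change of -2.40 was 0.70 by limma-voom and 0.87 with no experiment term. No difference that reversed was past the threshold. When a library was left out, log2 fold changes ran from -1.03 to 0.44 for Msr1, -0.13 to 0.24 for Scarb1 and -0.10 to 1.09 for Cd163 in experiment 2. They ran from -0.092 to 1.35 for Msr1, -0.14 to 0.049 for Colec12 and -0.99 to 0.19 for Cd163 in the interaction, and from -1.07 to 0.12 for Cd36, -6.34 to 0.69 for Marco and -1.22 to 0.34 for Clec7a with the additive term. The difference of Mkl1 ran from -0.92 to -0.59, and without a WT library its exact permutation p was 0.0571. The causes were not tested. Over all tested genes, 2279 passed in experiment 2, against 803, 1388, 842 and 232 without WT library 3, WT library 4, KO library 7 and KO library 8, 4899 in the joint fit and 234 at an adjusted p under 0.01. In the interaction 5996 passed, against 3935 without WT library 2 and 3247 at 0.01. With the additive term 1027 passed, against 2492 by DESeq2, 243 to 1100 without a library (243, 365, 630 and 495 without WT libraries 1 to 4, 271, 395 and 361 without KO libraries 5 to 7), 4 with no experiment term, 4811 with the interaction kept, 26 with KO libraries exchanged and 208 at 0.01. With 2 libraries a group, a receptor near the limit of counting (Olr1, Cd163) can show only wide differences.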

Other observations

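For each tested receptor, the genes (mean log2 CPM of 3 or more) whose log2 CPM followed it most closely over the 8 libraries are named as a description, with Pearson's r. The libraries share their genotype and experiment, and r carries no test. Colec12 was followed by Tctn3 (r = 0.990), Cbx6 (0.987) and Mfsd12 (0.986), and Cd36 by Tfrc, the transferrin receptor (0.997), Haus2 (0.983) and Arl2 (0.982). Marco was followed by Luc7l (0.990), Slc39a4 (0.988) and Mtmr2 (0.986), and Clec7a by Pdlim5 (0.981), mt-Cytb (0.980) and Anapc13 (0.976). Scarb1 was followed by Kmt2e (0.996), Ehd4 (0.993) and Dgka (0.992), Cd163 by Parp6 (0.970), Ppp2r5c (0.960) and Selplg (0.953), and Msr1 by Pold3 (0.918) and Ggh (0.909). Among the receptors themselves r was -0.856 between Marco and Scarb1, -0.758 between Cd36 and Clec7a and 0.735 between Colec12 and Scarb1, and it was -0.134 between Colec12 and Clec7a.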
